A study of Mus musculus with 7 samples.

Results

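The genes described here are 34 genes of the lysosome and of autophagy in sorted pancreatic β-cells of the mouse. They were chosen by name as lysosomal hydrolases, lysosomal membrane proteins, the TFEB family and the core autophagy machinery. Earlier results of these data were known when they were chosen. All 34 were found among the 24035 genes of the count table. The β-cells came from C57BL/6NCrl mice, labelled C57BL/6N, that were given a chow diet (CD) or a high fat diet (HFD) of 60% fat for 2 days from 12 weeks of age, with no other treatment or transgene in either group. Each library is a separate mouse, 4 of them on CD (numbered 1 to 4) and 3 on HFD (numbered 2 to 4). The comparison asks which transcripts of the β-cell differ after a 2-day HFD. All 7 libraries held counts of Y-linked genes (900 to 2725 of Ddx3y) and 0 to 7 counts of Xist, so the X-linked members Lamp2, Gla and Tfe3 were compared among libraries alike in this respect.

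The lysosome is the acidic compartment in which proteases, glycosidases and lipid-handling proteins take apart what reaches it by endocytosis or autophagy. In macroautophagy a membrane forms around part of the cytoplasm, is coated with lipid-bound LC3 and GABARAP proteins, and fuses with the lysosome. The β-cell also delivers insulin granules to lysosomes, and mice whose β-cells lack Atg7 have disordered islets and poor insulin secretion. TFEB and TFE3 are basic helix-loop-helix factors that move to the nucleus when mTORC1 activity at the lysosome is low. There they bind E-box motifs in promoters of many lysosomal and autophagy genes, where the site is known as the CLEAR element.

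The promoter sequences are shown because the E-box is the kind of site that TFEB and TFE3 are known to bind, and because genes with and without the motif can then be compared. RefSeq promoters of build GRCm38.p6, from 250 bases before to 50 bases after a transcript start, were at hand for 30 of the 34 genes. The palindromic E-box CACGTG, which reads the same on both strands, was found 19 times in 11 of these 30 genes (36.7%), while 2187 of 27025 genes with a promoter (8.09%) held it. The longer palindrome TCACGTGA, which contains the E-box, was found in 5 of the 30 (16.7%), in Ctsa, Ctsd, Gla, Cln3 and Mcoln1, against 1.13% of all genes. In both counts all genes with a RefSeq promoter were taken, whether or not they were tested in these cells. They were not matched to the 30 in level or base composition, so the shares are not a like-for-like comparison. The motif is also known from promoters of lysosomal genes, so a higher share in a list of such genes is no independent result. Each stretch is written from 5′ to 3′ on the strand of its gene, with 10 bases on either side of its E-boxes, and the capitals mark the E-boxes.
Lamp1, chr8:13159090-13159161, plus strand: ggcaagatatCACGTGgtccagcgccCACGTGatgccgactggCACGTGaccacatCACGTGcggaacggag
Ctsa, chr2:164833751-164833793, plus strand: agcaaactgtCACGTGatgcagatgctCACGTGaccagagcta
Ctsd, chr7:142387910-142387935, minus strand: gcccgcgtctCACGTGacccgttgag
Ctsl, chr13:64370741-64370766, minus strand: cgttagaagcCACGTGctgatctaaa
Gaa, chr11:119267813-119267838, plus strand: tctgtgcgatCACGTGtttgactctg
Gla, chrX:134601184-134601242, minus strand: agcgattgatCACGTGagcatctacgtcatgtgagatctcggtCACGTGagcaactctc
Glb1, chr9:114401020-114401045, plus strand: gcttctgagtCACGTGgcctacagag
Cln3, chr7:126583342-126583395, minus strand: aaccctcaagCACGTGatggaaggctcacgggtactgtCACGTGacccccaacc
Mcoln1, chr8:3500438-3500489, plus strand: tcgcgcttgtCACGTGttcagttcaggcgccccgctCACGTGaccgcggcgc
Atg5, chr10:44268315-44268340, plus strand: gagcgcttgcCACGTGgtcttggtga
Atg7, chr6:114670954-114670979, plus strand: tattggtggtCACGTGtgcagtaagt
The E-boxes nearest to a start were those of Ctsa, at 8 bases from it, Atg5, at 11, and Lamp1, at 12. The other E-boxes of Lamp1 lay 25 to 58 bases before the start. The E-box of Ctsl was the most distant of those shown, at 233 bases before the start. A further E-box of Ctsd at the edge of its promoter is not shown. Distances are from the RefSeq start, and the starts behind the stretches of Ctsa, Cln3 and Atg7 lie well inside the span that GENCODE gives the gene. The E-boxes shown for Ctsl and Ctsd also lie within that span, as does the E-box of Mcoln1 nearest to its start. A motif match describes the letters of the window and is no measure of binding.

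The CD libraries totalled 11145642 to 22557957 counts, with a median of 12993901, and the HFD libraries 10559175 to 14391602, with a median of 14029002. Fewer genes were detected in HFD replicate 3 than elsewhere, 9627 against 12484 to 14600. Of 9443 genes that had 50 counts or more in all the rest, it was at 0 for 807 (8.55%). HFD replicate 3 lay outside the range of the other 6 libraries for 16 of the 34 (47.1%), above it for 6 and below it for 10, against 66.5% of all genes tested. Values without this library are given beside the results that rest on it. The cells carried the markers of β-cells, since 10 β-cell genes that include Ins1, Ins2 and Iapp summed to 303090 to 315660 CPM (counts scaled by library size) on CD and to 323530 to 334480 CPM on HFD. Macrophages are rich in lysosomal enzymes, and 11 macrophage markers summed to 48.3 to 76.7 CPM on CD and 47.5 to 58.9 CPM on HFD. Most of this was C1qa, at 50.7 CPM on CD and 34.5 CPM on HFD, while Aif1, C1qb and Ptprc were at 0 in all libraries but 1. Fcer1g differed in the other direction, at 3.44 CPM on CD and 13.7 CPM on HFD, with 26.4 CPM in HFD replicate 3. Acinar markers summed to between 43.7 and 2076 CPM on CD and between 0.568 and 1591 CPM on HFD, with the lowest sum in HFD replicate 3. The part of these cells in the results was not tested. In sorted cells, fewer cells with a transcript and less RNA per cell cannot be told apart.

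The 34 genes together summed to 5955 to 6244 CPM in the CD libraries and to 5676 to 5971 CPM in those on HFD. Psap, Sqstm1 and Lamp1 made up 48.7% of the sum on CD. Their levels are compared as CPM per kilobase of transcript, with the longest well-supported coding transcript taken for each gene. Where the cells mainly use a shorter transcript, the level is understated, and the ranges between mice do not include this error. The order of levels and the place among all genes rest on these lengths, and their dependence on the choice of transcript was not tested. The median level on CD was 27.2 CPM per kb over the 34 genes and 7.64 CPM per kb over 12272 tested genes with a known length. Of the 34, 31 were at or above the median of all genes and 11 were in the highest 10%. The median coefficient of variation between CD mice was 11.5% over the 34 genes and 20.97% over all genes. All genes tested include many with lower counts and were not matched to the 34 in level, so this is not a like-for-like comparison.

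**Figure D1:**
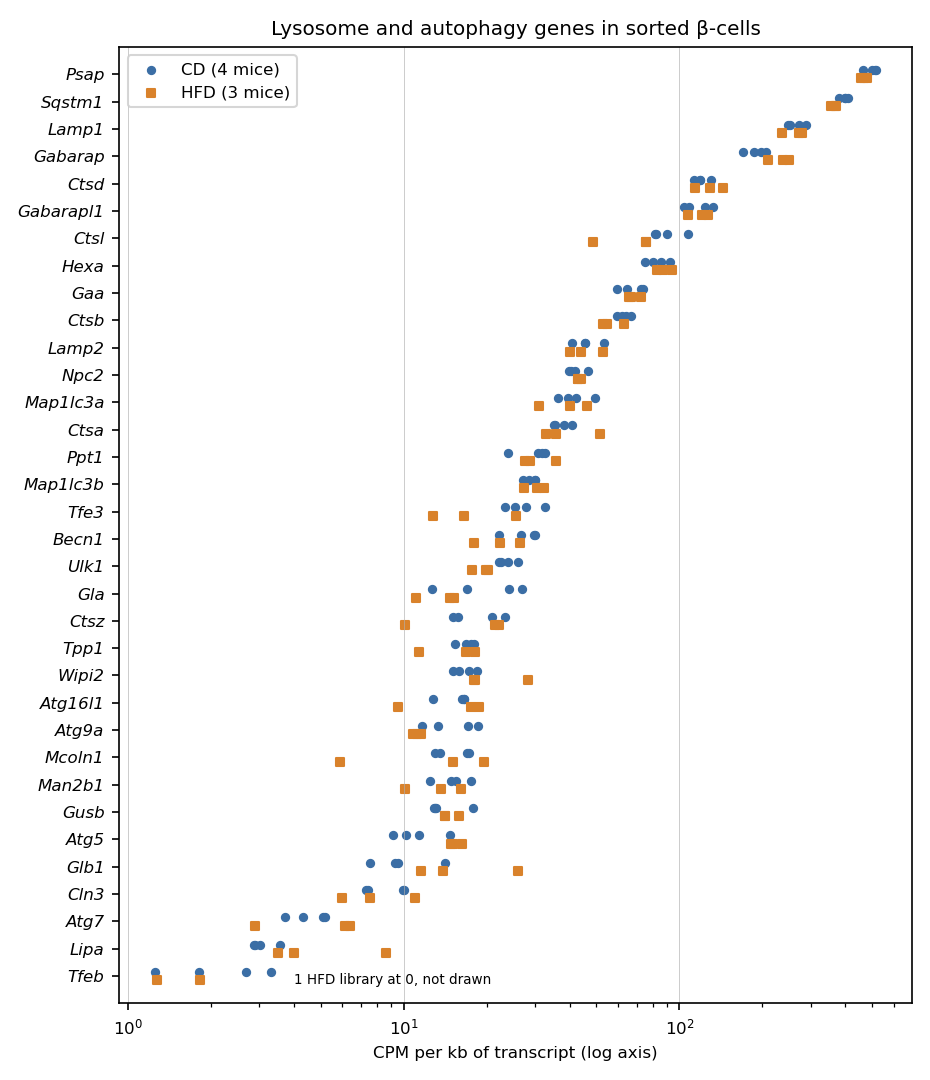
Level of each of the 34 genes in CPM per kb of transcript (log axis), with 1 point for each mouse (4 CD circles, 3 HFD squares), ordered by the CD mean. Psap, Sqstm1, Lamp1 and Gabarap stand at the top with separate CD ranges, and Tfeb and Lipa at the bottom. The library in which Tfeb was at 0 is not drawn.

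Psap, which encodes prosaposin, the precursor of the saposins that help degrade sphingolipids, had the highest level, at 498 CPM per kb on CD with a range of 464 to 516 over the 4 mice. Sqstm1, which encodes the cargo receptor p62, followed at 395 CPM per kb (379 to 407), and Lamp1, a major glycoprotein of the lysosomal membrane, at 265 CPM per kb (248 to 287). Gabarap, a ubiquitin-like protein of the autophagosome membrane, had 189.8 CPM per kb (169.5 to 206). The ranges of these 4 genes did not overlap with each other or with that of the aspartic protease gene Ctsd, at 120.2 CPM per kb (113 to 131).

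Within the LC3 family, Gabarapl1 had 117 CPM per kb on CD, Map1lc3a 41.8 and Map1lc3b 28.8. Gabarapl2, a further member of the family that belongs to the other autophagy genes, had 13.3 CPM per kb. The next cathepsins were Ctsl at 90.3 and Ctsb at 63.0 CPM per kb, both cysteine proteases. Ctsa, a carboxypeptidase that also protects β-galactosidase, had 37.3 CPM per kb, Ctsz, another carboxypeptidase, 18.8, and the tripeptidyl peptidase gene Tpp1 16.9. Among glycosidases the β-hexosaminidase subunit gene Hexa had 83.4 CPM per kb and the acid α-glucosidase gene Gaa, whose enzyme degrades glycogen, 67.5. The other glycosidase genes Gla, Man2b1, Gusb and Glb1 lay at 10.1 to 20.2 CPM per kb.

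In the initiation and conjugation machinery the levels were closer together. Becn1, a subunit of the class III phosphatidylinositol 3-kinase complex, had 27.1 CPM per kb, Ulk1, the kinase that starts autophagy, 23.6, and the phosphoinositide-binding Wipi2 16.7. Atg16l1 had 15.6, the lipid scramblase gene Atg9a 15.2, Atg5 11.4 and Atg7, whose product is the activating enzyme for the conjugation of LC3 and ATG12, 4.58 CPM per kb. Of the factors, Tfe3 had 27.3 CPM per kb and Tfeb 2.26, the lowest of the 34 genes, with CD ranges of 23.4 to 32.4 and 1.26 to 3.29. In the order of levels, 9 genes had a CD range apart from that of the next gene. These were the steps from Psap down to Ctsd, and those from Hexa to Gaa, Ctsb to Lamp2, Ctsa to Ppt1, Cln3 to Atg7 and Atg7 to Lipa.

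None of the 34 genes passed the adjusted threshold between HFD and CD. By edgeR (quasi-likelihood, Benjamini-Hochberg adjusted) over 12354 genes, 0 genes of the table (0%) had an adjusted p under 0.05, and the lowest adjusted p among the 34 was 0.817. DESeq2 called 137 of all genes (1.11%) and 0 of the 34. At an unadjusted p under 0.05, edgeR gave 5 of the 34 (14.7%), with 2 higher and 3 lower on HFD, against 713 of all genes (5.77%), of which 2.86% were higher and 2.91% lower. DESeq2 gave 9 of the 34 at this level, against 10.7% of all genes. The fitted log2 fold change was above 0 for 15 and below 0 for 19, with a median of −0.02, while 42.1% of all genes tested were above 0 with a median of −0.08. Without HFD replicate 3, 13 lay above 0 and 21 below, with 45.2% of all genes above 0. The median was then −0.05, against −0.04 over all genes. All genes tested include genes with low counts. With at least 10 counts in every library, edgeR gave an unadjusted p under 0.05 for 4 of 33 and for 871 of 9209 genes. In that fit, from which Tfeb is missing, 15 of the 33 and 4487 of the 9209 lay above 0, with medians of −0.02 and −0.01.

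The precision differed widely between the 34 genes. The median SE of the log2 fold change was 0.18, against 0.35 over all genes, which were not matched to the 34 in level. For 14 of the 34 the 95% interval lay within 0.5 of 0 on the log2 scale. All 3 HFD libraries lay above every CD library for Gabarap and Atg5, and all genes gave 4.05% in this direction. They lay below every CD library for Ulk1, Ctsl, Atg9a and Sqstm1, with 5.37% of all genes. The sign of the fold change was the same under all 18 alternatives (of test, scaling, filter, covariate and left-out library) for 16 of the 34 and, for Tfeb, under all but the filter at which it was not tested. Without HFD replicate 3 it changed for 10 genes whose fold changes lay close to 0, which were Lamp1, Mcoln1, Ctsa, Ctsz, Gaa, Gusb, Ppt1, Gabarapl1, Atg7 and Atg16l1. Coordinates of genes are those of GENCODE M21 on GRCm38.

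**Figure D2:**
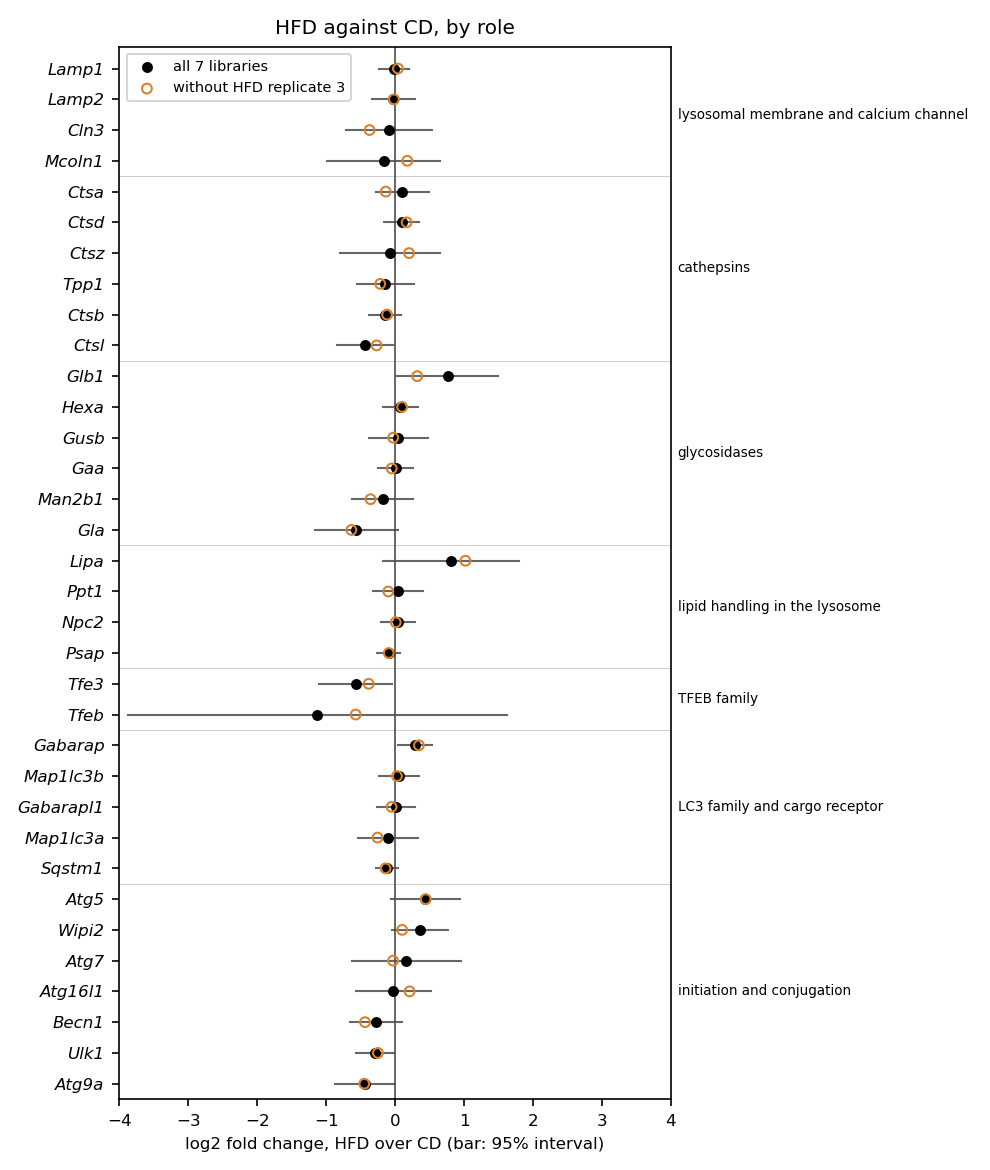
Fitted log2 fold change of HFD over CD for each of the 34 genes, grouped by role (black points, all 7 libraries, with bars for the 95% interval) and the same without HFD replicate 3 (open circles). Intervals of most genes with high counts lie close to 0, that of Tfeb spans −3.87 to 1.62, and Glb1, Wipi2 and Mcoln1 are among the genes that move when HFD replicate 3 is left out.

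The 4 genes of the lysosomal membrane had log2 fold changes of −0.17 to −0.01. Lamp1 had 641, 561, 554 and 607 CPM in CD replicates 1 to 4 and 607, 526 and 620.3 CPM in HFD replicates 2 to 4. The groups overlapped, and the log2 fold change was −0.01 ± 0.10 (SE) with a 95% interval of −0.24 to 0.21, and 0.04 without HFD replicate 3. Lamp1 shares 9.31% of its exon bases with Grtp1 on the opposite strand, itself at 21.3 CPM on CD and 35.9 on HFD. Lamp2, which encodes the receptor of chaperone-mediated autophagy in its A isoform, averaged 166.9 ± 18.7 CPM over the CD mice (SD, n = 4) and 164 ± 23.3 CPM over the HFD mice (SD, n = 3), with an interval of −0.34 to 0.29. Mcoln1, the calcium channel TRPML1, averaged 31.3 ± 4.62 CPM over the CD mice (SD, n = 4) and 27.9 ± 14.4 CPM over the HFD mice (SD, n = 3), and its fold change turned from −0.17 to 0.18 without HFD replicate 3, in which it had 12.2 CPM. Cln3, a membrane protein mutated in a juvenile form of neuronal ceroid lipofuscinosis, averaged 27.8 ± 4.78 CPM over the CD mice (SD, n = 4) and 26.2 ± 8.23 CPM over the HFD mice (SD, n = 3), and its fold change moved from −0.09 to −0.37 without HFD replicate 3.

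Of the 6 cathepsin and peptidase genes, 2 were above and 4 below 0. Ctsl (chr13:64359337-64370890, minus strand) had 160.6, 212, 177 and 162 CPM in CD replicates 1 to 4 and 149, 95.5 and 149 CPM in HFD replicates 2 to 4. Every HFD library lay below every CD library, by a margin that was narrow for replicates 2 and 4 and wide for replicate 3. HFD over CD gave a log2 fold change of −0.44 ± 0.18 (SE), with an unadjusted p of 0.0380 and an adjusted p of 0.854 by edgeR. Without HFD replicate 3 it was −0.27. Exons of Ctsl overlap the antisense gene Gm47123 and the pseudogene Gm49230, which were not analysed here.

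Ctsd, the highest of the cathepsins per length, had 252, 241, 252 and 278 CPM on CD and 275, 241 and 305 CPM on HFD. The groups overlapped, and the log2 fold change was 0.10 ± 0.11 (SE). It shares 34.4% of its exon bases with Gm49369 on the same strand, which was not analysed here. Ctsb averaged 298.6 ± 15.1 CPM over the CD mice (SD, n = 4) and 269 ± 25.8 CPM over the HFD mice (SD, n = 3), with a log2 fold change of −0.15 ± 0.10 (SE). It shares 12.8% of its exon bases with Fdft1, a gene of cholesterol synthesis on the opposite strand, itself at 172 CPM on CD and 105.0 on HFD. Whether strand was used in counting is not known here, so part of the counts of such pairs could be shared. The log2 fold changes of the other members were 0.10 for Ctsa, −0.07 for Ctsz and −0.14 for Tpp1, and those of Ctsa and Ctsz changed sign without HFD replicate 3, to −0.13 and 0.20.

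Of the 6 glycosidase genes, 4 were above and 2 below 0, and 2 above and 4 below without HFD replicate 3. Glb1 (chr9:114401076-114474898, plus strand), which encodes lysosomal β-galactosidase, had 18.02, 22.9, 22.2 and 33.7 CPM in CD replicates 1 to 4 and 27.7, 62.2 and 33.4 CPM in HFD replicates 2 to 4. HFD replicate 3 was the highest library, and the other HFD libraries lay within the CD range. The fitted log2 value was 0.76 ± 0.33 (SE), with an unadjusted p of 0.0435 and an adjusted p of 0.854 by edgeR, and 0.32 without HFD replicate 3, where the unadjusted p was 0.239. Glb1 shares 5.49% of its exon bases with Tmppe on the same strand, itself at 8.59 CPM on CD and 13.5 on HFD.

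Gla (chrX:134588149-134601125, minus strand), the α-galactosidase gene mutated in Fabry disease, had 85.5, 76.6, 40.2 and 54.1 CPM on CD and 48.2, 46.8 and 35.03 CPM on HFD. The CD libraries were widely spread, and 1 of them lay below 2 of the HFD libraries. Its log2 fold change was −0.56 ± 0.27 (SE), with an unadjusted p of 0.0627 by edgeR, and −0.63 without HFD replicate 3. Hexa, the highest glycosidase gene per length, had 171.7, 149.9, 184 and 160.0 CPM on CD and 174.5, 166 and 187 CPM on HFD, with a log2 fold change of 0.08 ± 0.12 (SE). Gaa averaged 245 ± 24.9 CPM over the CD mice (SD, n = 4) and 247 ± 13.3 CPM over the HFD mice (SD, n = 3), with an interval of −0.24 to 0.27. Gusb, the β-glucuronidase gene, averaged 38.2 ± 6.44 CPM over the CD mice (SD, n = 4) and 39.5 ± 2.64 CPM over the HFD mice (SD, n = 3). Man2b1, a lysosomal α-mannosidase gene, averaged 57.7 ± 8.16 CPM over the CD mice (SD, n = 4) and 51.0 ± 11.6 CPM over the HFD mice (SD, n = 3), with a fold change of −0.18 that was −0.36 without HFD replicate 3.

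**Figure D3:**
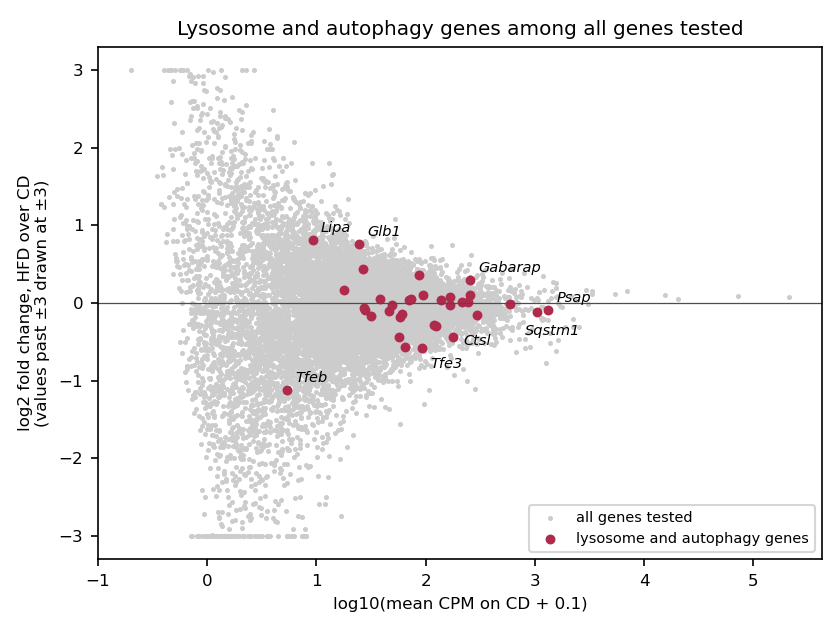
Log2 fold change of HFD over CD against the mean CD level on a log10 axis (CPM plus 0.1), for 12354 tested genes (grey) and the 34 lysosome and autophagy genes (red). Values past 3 in either direction are drawn at the edge. The 34 genes lie toward the right, where the spread is narrow, and Tfeb, Lipa and Glb1, at low levels, have the 3 values farthest from 0.

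The 4 genes of lipid handling in the lysosome had 3 values above and 1 below 0, and 2 above and 2 below without HFD replicate 3. Psap had 1365, 1228, 1358 and 1322 CPM on CD and 1239, 1207 and 1262 CPM on HFD. The groups overlapped at CD replicate 2, and the log2 fold change was −0.09 ± 0.07 (SE), with an interval of −0.26 to 0.07. Lipa (chr19:34492318-34527474, minus strand), the acid lipase that frees cholesterol and fatty acids from cholesteryl esters and triglycerides, had 10.6, 8.56, 8.96 and 8.50 CPM on CD and 25.7, 10.4 and 11.9 CPM on HFD. HFD replicate 2 was the highest library, HFD replicate 4 lay above the CD range and HFD replicate 3 within it. HFD over CD gave a log2 fold change of 0.81 ± 0.44 (SE), with an unadjusted p of 0.0973 by edgeR. It was 1.02 without HFD replicate 3 and 0.28 without HFD replicate 2. Npc2, which carries cholesterol within the lysosome, averaged 139 ± 9.97 CPM over the CD mice (SD, n = 4) and 142.8 ± 2.01 CPM over the HFD mice (SD, n = 3). Ppt1, which removes palmitate from proteins, averaged 70.8 ± 9.37 CPM over the CD mice (SD, n = 4) and 72.9 ± 10.6 CPM over the HFD mice (SD, n = 3).

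Both transcription factors had fitted values below 0. Tfe3 (chrX:7762560-7775202, plus strand) had 94.5, 86.1, 79.3 and 109.9 CPM in CD replicates 1 to 4 and 56.3, 43.4 and 86.6 CPM in HFD replicates 2 to 4. HFD replicates 2 and 3 lay below every CD library, and HFD replicate 4 lay within the CD range. The fitted log2 value was −0.57 ± 0.23 (SE), with an unadjusted p of 0.0351 and an adjusted p of 0.854 by edgeR, and −0.38 without HFD replicate 3. Without HFD replicate 4 it was −0.91.

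Tfeb (chr17:47737030-47792419, plus strand) had 75, 33, 172 and 60 counts in CD replicates 1 to 4 and 58, 0 and 43 counts in HFD replicates 2 to 4. The count of 0 was in HFD replicate 3, in which many well-measured genes were at 0, and a count of 0 allows up to 3 counts, or 0.274 CPM, for counting error only. In the other HFD libraries Tfeb had 4.28 and 2.98 CPM, within the CD range of 2.94 to 7.71 CPM. Its log2 fold change was −1.12 ± 1.22 (SE), and −0.57 without that library.

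**Figure D4:**
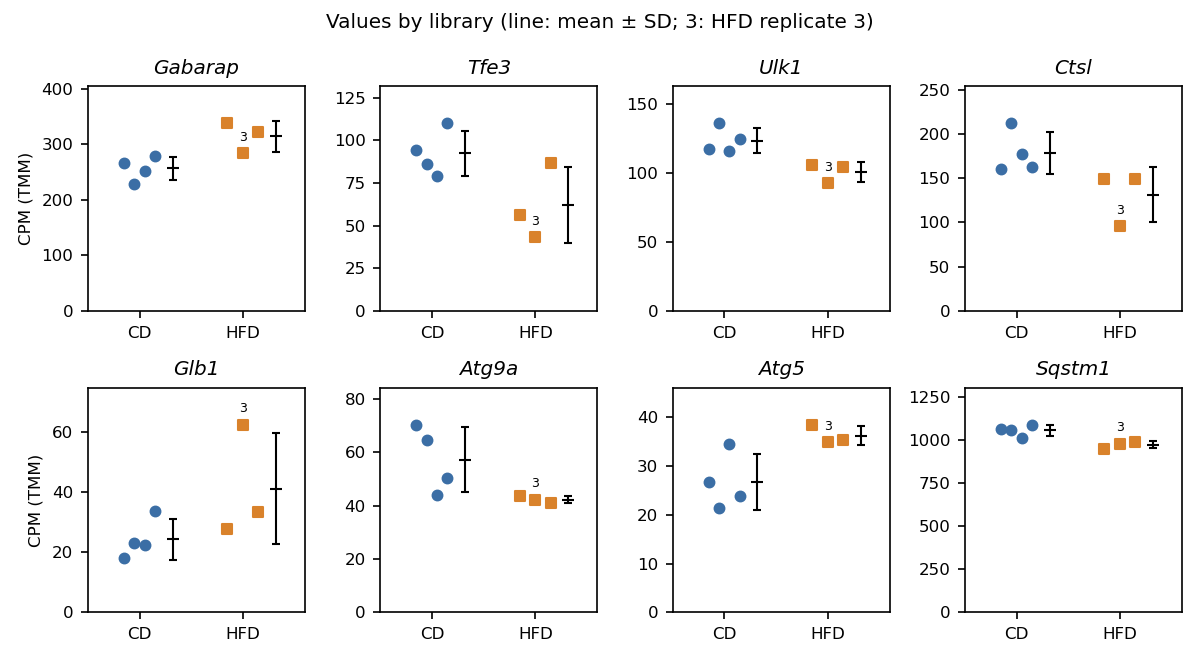
CPM of 8 genes in each library (4 CD circles, 3 HFD squares, the digit 3 marking HFD replicate 3), with the mean ± SD of each group beside the points and each axis starting at 0. The groups do not overlap for Gabarap, Ulk1, Ctsl, Atg9a, Atg5 and Sqstm1 and overlap for Tfe3 and Glb1. HFD replicate 3 is the HFD library farthest from CD for Tfe3, Ulk1, Ctsl and Glb1.

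Gabarap (chr11:69991143-69994951, plus strand) had the lowest p of the 34 genes. It had 267, 229, 252 and 278 CPM in CD replicates 1 to 4 and 337, 284 and 321 CPM in HFD replicates 2 to 4. Every HFD library lay above every CD library, with HFD replicate 3 only just above. HFD over CD gave a log2 fold change of 0.29 ± 0.11 (SE), a ratio of means of 1.23, with an unadjusted p of 0.0258 and an adjusted p of 0.817 by edgeR. It was 0.35 without HFD replicate 3, and 0.23 to 0.35 when any library was left out.

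The cargo receptor gene Sqstm1 (chr11:50199366-50210827, minus strand) had 1063, 1061, 1014 and 1088 CPM on CD and 949.7, 979 and 989 CPM on HFD. The groups did not overlap, and the difference was small, with a log2 fold change of −0.12 ± 0.07 (SE), an interval of −0.28 to 0.04 and an unadjusted p of 0.129 by edgeR. It shares 17.3% of its exon bases with Mrnip on the opposite strand, which was not analysed here. Gabarapl1 had a log2 fold change of 0.02 ± 0.12 (SE) and Map1lc3b of 0.05 ± 0.13 (SE). Map1lc3a, averaging 46.5 ± 6.23 CPM over the CD mice (SD, n = 4) and 43.4 ± 8.51 CPM over the HFD mice (SD, n = 3), had a value of −0.10, and −0.25 without HFD replicate 3. Gabarapl2, from the list of other autophagy genes, had 0.40, and −0.14 without HFD replicate 3. Map1lc3b shares 11.2% of its 50-base stretches with the pseudogene Gm6055, so its counts depend on how such reads were placed.

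Of the 7 initiation and conjugation genes, 3 were above and 4 below 0. Ulk1 (chr5:110784488-110810097, minus strand) had 117, 136, 116 and 124 CPM in CD replicates 1 to 4 and 105.5, 92.4 and 104 CPM in HFD replicates 2 to 4. The groups did not overlap, and the log2 fold change was −0.29 ± 0.12 (SE), with an unadjusted p of 0.0375 and an adjusted p of 0.854 by edgeR, and −0.25 without HFD replicate 3. Atg9a (chr1:75180860-75192196, minus strand), the scramblase of the vesicles that seed the autophagosome, had 70.2, 64.6, 43.8 and 50.2 CPM on CD and 43.7, 42.2 and 40.9 CPM on HFD. The HFD libraries were close together just below the lowest CD library, while the CD libraries were spread. The fitted log2 value was −0.44 ± 0.20 (SE), with an unadjusted p of 0.0513 by edgeR, and −0.45 without HFD replicate 3. Exons of Atg9a overlap Gm29253 on the same strand over 31.8% of their bases, which was not analysed here.

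Atg5 (chr10:44268358-44364291, plus strand), which joins ATG12 and ATG16L1 in the complex that attaches LC3 to lipid, had 26.8, 21.5, 34.6 and 23.9 CPM on CD and 38.4, 34.9 and 35.4 CPM on HFD. Every HFD library lay above every CD library, and CD replicate 3 came close. Its log2 fold change was 0.44 ± 0.22 (SE), with an unadjusted p of 0.0808 by edgeR, and 0.45 without HFD replicate 3. Wipi2 (chr5:142627698-142670588, plus strand), which recruits ATG16L1 to the forming membrane, had 78.0, 89.3, 81.8 and 95.8 CPM on CD and 93.6, 145.7 and 93.4 CPM on HFD. HFD replicate 3 was far above the other libraries, and the other HFD libraries lay within the CD range. HFD over CD gave a log2 fold change of 0.36 ± 0.18 (SE), with an unadjusted p of 0.0734 by edgeR, and 0.10 without HFD replicate 3.

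Becn1, the highest of these genes per length, had 116, 129.6, 130.3 and 96.4 CPM on CD and 78.8, 115.5 and 97.7 CPM on HFD. The groups overlapped, with HFD replicate 2 the lowest library. The fitted log2 value was −0.28 ± 0.17 (SE), with an unadjusted p of 0.129 by edgeR, and −0.44 without HFD replicate 3. Becn1 shares 43.9% of its exon bases with Cntd1 on the opposite strand, itself at 0.723 CPM on CD and 0.594 on HFD. Atg16l1 averaged 48.7 ± 5.76 CPM over the CD mice (SD, n = 4) and 47.9 ± 15.7 CPM over the HFD mice (SD, n = 3), with a log2 fold change of −0.02 that was 0.21 without HFD replicate 3. Atg7 averaged 17.8 ± 2.72 CPM over the CD mice (SD, n = 4) and 19.98 ± 7.54 CPM over the HFD mice (SD, n = 3), with an interval of −0.63 to 0.95.

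The 5 genes with an unadjusted p under 0.05 each lost it when some library was left out. The highest p over the 7 libraries left out in turn was 0.102 for Gabarap, 0.1001 for Tfe3, 0.0920 for Ulk1, 0.0939 for Ctsl and 0.239 for Glb1. Without HFD replicate 3 the 4 genes with an unadjusted p under 0.05 were Lipa, at 0.0102, Gabarap, at 0.0135, Becn1, at 0.0275, and Gla, at 0.0421. In that fit 870 of 12784 genes (6.81%) had such a p. Gabarap was the gene that both fits had in common.

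Genes with and without an E-box lay on both sides of 0. Of the 11 genes with an E-box in a promoter, 6 lay above 0 and 5 below. Their median log2 fold change was 0.01, in a range of −0.56 (Gla) to 0.76 (Glb1). Of the 19 with a promoter but no E-box, 9 lay above 0 and 10 below. Their median was −0.02, in a range of −1.12 (Tfeb) to 0.81 (Lipa). Without HFD replicate 3 the sign changed for Lamp1, Mcoln1, Ctsa, Gaa and Atg7 among the genes with an E-box. Among those without it, the sign changed for Ctsz, Gusb, Ppt1 and Gabarapl1, so neither split is firm. The 5 genes with TCACGTGA had 2 above and 3 below 0 and a median of −0.09. The median level on CD was 20.2 CPM per kb with the E-box and 27.3 CPM per kb without it.

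Other genes of the same pathways were read from 3 further lists. These lists were chosen with earlier results of these data known, so their shares and splits describe the lists and are no independent support. Over all genes tested, 42.1% lay above 0, with a median of −0.08, and 5.77% had an unadjusted p under 0.05 by edgeR. At that threshold 2.86% of all genes were higher and 2.91% lower. With HFD replicate 3 left out, 45.2% of all genes lay above 0, with a median of −0.04. Of 49 symbols listed for other lysosome genes, 48 were in the count table and 46 were tested. Of the tested genes 16 lay above 0 and 30 below, and their median log2 fold change was −0.07. Leaving out HFD replicate 3 gave 15 above 0 and 31 below, with a median of −0.08. At an unadjusted p under 0.05 with all 7 libraries, 0 were higher and 1 was lower (2.17%, against 5.77% of all genes). This was Tmem55b, a lysosomal membrane phosphatase gene, averaging 93.7 ± 5.84 CPM over the CD mice (SD, n = 4) and 71.8 ± 3.77 CPM over the HFD mice (SD, n = 3). Its log2 fold change was −0.38 ± 0.12 (SE), with an unadjusted p of 0.0123 and an adjusted p of 0.817 by edgeR, and −0.36 without HFD replicate 3. The next by p were Pla2g15, the lysosomal phospholipase A2 gene, at −0.55, Tmem192, a lysosomal membrane protein gene, at 0.83, and Scarb2, the receptor that sorts glucocerebrosidase, at −0.36. Without HFD replicate 3 the values were −0.46 for Pla2g15, 0.11 for Tmem192 and −0.16 for Scarb2.

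Of 42 other autophagy genes, all were tested, 22 of them above 0 and 20 below, and the median was 0.01. Leaving out HFD replicate 3 gave 19 above 0 and 23 below, with a median of −0.02. At an unadjusted p under 0.05 with all 7 libraries, 1 was higher and 2 were lower (7.14%, against 5.77% of all genes). Rab7, the small GTPase of late endosomes and lysosomes, averaged 93.7 ± 21.4 CPM over the CD mice (SD, n = 4) and 63.6 ± 10.4 CPM over the HFD mice (SD, n = 3), with a log2 fold change of −0.56 and an adjusted p of 0.817 by edgeR. Ei24, whose protein lies in the endoplasmic reticulum and is needed for autophagic degradation, averaged 80.3 ± 2.68 CPM over the CD mice (SD, n = 4) and 105.5 ± 17.9 CPM over the HFD mice (SD, n = 3), with a log2 fold change of 0.39. Stx17, the syntaxin through which autophagosomes fuse with lysosomes, averaged 20.7 ± 6.78 CPM over the CD mice (SD, n = 4) and 11.7 ± 2.41 CPM over the HFD mice (SD, n = 3), with a log2 fold change of −0.83. The mitophagy receptor gene Fundc1 followed at −0.57, and −0.31 without HFD replicate 3. For Rab7, Ei24 and Stx17 the groups did not overlap, and the values without HFD replicate 3 were −0.45, 0.27 and −0.70.

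Of 27 regulators of the pathway, 26 were tested, 9 of them above 0 and 17 below, and the median was −0.15. Leaving out HFD replicate 3 gave 10 above 0 and 16 below, with a median of −0.11. At an unadjusted p under 0.05 with all 7 libraries, 0 were higher and 3 were lower (11.5%, against 5.77% of all genes). Flcn and Fnip2 encode folliculin and a partner of it, which act on the Rag GTPases at the lysosome and so on where TFEB and TFE3 reside. Fnip2 had 55.2, 85.5, 55.4 and 54.1 CPM in CD replicates 1 to 4 and 43.0, 40.8 and 36.1 CPM in HFD replicates 2 to 4. Flcn had 99.8, 83.9, 110.9 and 91.3 CPM on CD and 51.4, 82.7 and 71.9 CPM on HFD. In both genes every HFD library lay below every CD library, by a narrow margin for Flcn in HFD replicate 3. The log2 fold changes were −0.65 ± 0.20 (SE) and −0.49 ± 0.18 (SE), with unadjusted p of 0.0110 and 0.0246 and adjusted p of 0.817 by edgeR, and −0.67 and −0.66 without HFD replicate 3. Gsk3b, a kinase that phosphorylates TFEB, averaged 75.2 ± 6.11 CPM over the CD mice (SD, n = 4) and 60.6 ± 3.25 CPM over the HFD mice (SD, n = 3), with a log2 fold change of −0.31, and −0.33 without HFD replicate 3. Lamtor2, a Ragulator subunit gene, had 0.72, and 0.19 without HFD replicate 3.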

How the data were processed

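The deposited values are raw counts of reads for every gene symbol in 7 libraries, which the authors did not normalize. α- and β-cells had been told apart by FACS with a zinc dye (ZIGIR) and fluorescent exendin-4 (Ex4-Cy5), and polyadenylated RNA was made into stranded libraries. The submitters' processing notes name mm10 and edgeR. Which aligner and counter were run, and whether strand was used, is not given in the sources used here. The study's methods also mention TPM and RPKM values, which were not used here. Its methods give mice of both sexes and its results text male mice.

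Of 24062 rows, 27 held dates in place of symbols (up to 0.155% of a library) and were left out. HFD was compared with CD over 7 libraries without covariates (R 4.3.3, edgeR 4.0.16): filterByExpr left 12354 genes, library sizes used TMM factors, and the quasi-likelihood test (glmQLFit, glmQLFTest) was two-sided, with Benjamini-Hochberg adjustment. Gene CPM use TMM-scaled library sizes, and sums use total counts. Lengths and exon overlaps came from GENCODE M21 on GRCm38, the same assembly as mm10 (98.5% of symbols matched), with the longest well-supported coding transcript of each gene. Promoters came from RefSeq. The script was tested on simulated counts with known changes.

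The members and lists were chosen with earlier results of these data known, and so was the rule for naming genes. Values by library were given for the 10 genes of lowest p, genes at 0 in any library and the highest gene per length of each role. Up to 4 genes of lowest p were named from each further list. Outside this rule, values by library were also given for Fnip2 and Flcn, and Gabarapl2 was named. The alternatives tried were edgeR's exact and likelihood ratio tests, DESeq2 1.42.0, limma-voom (limma 3.58.1), other size factors, no filter or at least 10 counts in every library, each library left out, the replicate number as a block, and a GC trend (loess span 0.5) removed. With 10559175 counts or more in a library, every member other than Tfeb had at least 96 counts in each.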

Additional observations from a re-analysis of the deposited data

Results flagged for a closer look

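In 2 of the 34 genes, 1 CD library lay far from the other 3 by Dixon's criterion, and chance alone marks about 1 in 20 genes. Gusb had 47.8 CPM in CD replicate 3 and 34.6 to 35.3 CPM in the other CD libraries. Atg16l1 had 40.1 CPM in CD replicate 3 and 51.1 to 51.9 CPM in the others.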

How the results depend on the processing

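Under all 18 alternatives 0 of the 34 genes had an adjusted p under 0.05. The count of the 34 with an unadjusted p under 0.05 was 5 in the main comparison, 3 with the likelihood ratio test, the exact test of edgeR and limma-voom, 9 with DESeq2, and 1 (without CD replicate 2) to 5 with each library left out. Over all genes the count was 713, 1319 with DESeq2, and 474 to 1119 with each library left out. Same-numbered libraries of the groups had correlations of 0.03 to 0.07 in their deviations, and those of different number −0.04 to 0.04. HFD replicates 2 and 4 correlated best with the CD library of their own number, and HFD replicate 3 with CD replicate 1. The labels state no pairing. With the replicate block 3 of the 34 and 375 of all genes had an unadjusted p under 0.05, and with the replicate block and the GC trend removed 3 and 373. The number of the 34 genes above 0 was 10 to 18 and their median −0.07 to 0.01, the only medians above 0 being those with upper-quartile factors and with the replicate block and GC trend removed. Without HFD replicate 3, 10 of the 34 changed sign. With at least 10 counts in every library Tfeb was not tested. Over all genes, adjusted calls numbered 23 with the likelihood ratio test, 10 with the exact test, 137 with DESeq2, 4 with 10 counts in every library and 2 without HFD replicate 3.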
